A study of Rattus norvegicus with 8 samples.

Results

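The genes described here encode the subunits of the transcription factor NF-kB (Nfkb1, Nfkb2, Rel, Rela and Relb) and the inhibitors that hold it back (Nfkbia, Nfkbib, Nfkbie and Tnfaip3). Nfkbiz, an atypical member of the inhibitor family, is counted with the inhibitors here. All were looked up by the gene name that the array's design gives each probe. Of the 10 genes listed, 7 had a probe under that name, and Rel, Relb and Tnfaip3 had none and were not analysed here. All 7 were among the 18171 genes that passed the filter on dim signal, and each of them was well above background on all 8 arrays. RNA from the colon was hybridised to 8 Agilent 1-colour arrays, with 2 arrays in each of 4 groups of female Wistar rats, all aged 14 weeks. The ALA colitis group ate a diet enriched with ALA, the n-3 fatty acid alpha-linolenic acid that plant oils supply. The fish oil colitis group ate fish oil, which per the labels is rich in eicosapentaenoic and docosahexaenoic acid. The n-6 colitis group ate sunflower oil, a source of n-6 fatty acids. All diets lasted 8 weeks, and these 3 groups of 10 rats each received 5% dextran sulfate sodium (DSS), which damages the epithelium of the colon, for 7 days. The healthy group of 6 rats ate sunflower oil and received no DSS. RNA of 6 rats was pooled before hybridisation, so that both healthy arrays carried the same rats, and whether the arrays of a colitis group shared a pool is not stated. The p-values and intervals below therefore rest on the spread between arrays of pooled RNA, and differences between animals enter them to an unknown extent. The submitters set the study up to compare the ALA and fish oil diets with the n-6 diet during colitis.

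NF-kB is a family of dimeric transcription factors that waits in the cytoplasm of resting cells, bound by inhibitory IkB proteins. Signals from Toll-like, interleukin-1 and tumour necrosis factor receptors activate the IKK kinase complex, which marks the IkB proteins for destruction and frees NF-kB to enter the nucleus. There it switches on cytokine, chemokine and survival genes, and also the genes of several of its own subunits and inhibitors, which closes a feedback loop. In the colon the pathway serves both inflammation by immune cells and survival of the epithelium. Most of its regulation acts on proteins, and an array measures mRNA.

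The sequences of 3 probes are given because the results turn on them, namely both Rela probes, of which 1 was dim, and the Nfkbia probe. They are as the scanner files hold them, 5′ to 3′ in lower case, with positions on the rn4 build.
Rela, probe near the end: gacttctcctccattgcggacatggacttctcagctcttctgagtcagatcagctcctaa
Rela, probe near the start: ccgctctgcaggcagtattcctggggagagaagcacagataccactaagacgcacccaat
Nfkbia: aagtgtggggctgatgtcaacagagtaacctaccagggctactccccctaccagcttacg
The Rela probe near the end lies at chr1:208272360-208272419 on the plus strand and begins at base 1654 of the transcript. The Rela probe near the start lies at chr1:208263526-208263582 on the same strand and begins at base 180. The Nfkbia probe lies at chr6:75730438-75730497 on the minus strand. Every member had 1 probe apart from Rela, and each of these probes was printed on 2 spots of an array, except the Rela probe near the start, which had 1 spot.

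Promoter sequences are shown for Nfkbia and Nfkbie, the inhibitors with the widest differences below, and for Nfkb1 and Nfkb2, whose levels tracked each other most closely. They are RefSeq windows of 300 bases around the annotated start on the GRCr8 build, read 5′ to 3′ along the gene. Capitals mark matches on either strand to a broad form of the motif NF-kB is known to bind, GGGA followed by 4 free bases and CC.
Nfkbia, chr6:78597023-78597322, minus strand: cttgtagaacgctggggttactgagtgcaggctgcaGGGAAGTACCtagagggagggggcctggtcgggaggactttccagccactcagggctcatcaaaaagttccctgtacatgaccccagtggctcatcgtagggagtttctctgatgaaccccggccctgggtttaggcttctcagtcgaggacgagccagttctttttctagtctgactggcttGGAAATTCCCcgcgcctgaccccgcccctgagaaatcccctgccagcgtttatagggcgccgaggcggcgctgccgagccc
Nfkbie, chr9:22947823-22948122, minus strand: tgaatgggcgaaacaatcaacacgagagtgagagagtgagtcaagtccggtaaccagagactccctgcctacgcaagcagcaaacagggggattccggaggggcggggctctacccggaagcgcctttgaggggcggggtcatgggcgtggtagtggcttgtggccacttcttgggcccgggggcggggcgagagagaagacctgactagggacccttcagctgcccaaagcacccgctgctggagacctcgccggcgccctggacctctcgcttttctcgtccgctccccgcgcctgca
Nfkb1, chr2:226805413-226805712, minus strand: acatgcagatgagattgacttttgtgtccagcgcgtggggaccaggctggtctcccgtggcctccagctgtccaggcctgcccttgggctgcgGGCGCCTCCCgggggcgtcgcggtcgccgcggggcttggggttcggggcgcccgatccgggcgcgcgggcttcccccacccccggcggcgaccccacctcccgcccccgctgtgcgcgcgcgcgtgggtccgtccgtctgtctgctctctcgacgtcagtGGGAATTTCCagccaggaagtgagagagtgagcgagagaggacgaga
Nfkb2, chr1:255108124-255108423, plus strand: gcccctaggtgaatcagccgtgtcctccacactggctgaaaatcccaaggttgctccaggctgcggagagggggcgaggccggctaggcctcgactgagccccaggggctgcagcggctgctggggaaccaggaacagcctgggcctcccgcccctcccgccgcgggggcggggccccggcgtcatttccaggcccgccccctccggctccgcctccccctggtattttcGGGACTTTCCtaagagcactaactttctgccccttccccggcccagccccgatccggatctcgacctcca
The stricter form, GGGA followed by any base and TTTCC, is always a match to the broader form too. It was present in the windows of 5 of the 9 members that had one. These were Nfkb1, Nfkb2, Nfkbia, Nfkbiz and Tnfaip3, of which the last has no level here. Of all 33469 rat promoters in the same table, 0.362% held it. The match lay 20 bases before the start in Nfkb2, 13 before in Nfkbiz, and 31 before on the opposite strand in Nfkbia. In Nfkb1 it lay at base 3 after the start, and in Tnfaip3 67 bases before it on the opposite strand. The broader form was present in 6 of 9 members, with Rel added, against 19.3% of all promoters. Neither form was found in these windows of Rela, Nfkbib and Nfkbie, which says nothing of sites elsewhere.

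The labelled tissue was borne out by its markers, since 14 of 15 colon epithelium markers and 7 of 7 smooth muscle markers were well above background on all 8 arrays. A line of the description calls the tissue of every sample healthy, and the groups here follow the titles. The 75th percentile of log2 processed signal lay between 7.90 and 8.78 on 7 arrays and at 6.85 on fish oil colitis replicate 1, the dimmest. The n-6 colitis replicate 1 stood apart from replicate 2 of its group in epithelium markers, whose mean log2 level was 2.48 against 4.14, and in B cell markers, at −0.29 against −3.88. All arrays lay on 1 slide, with the arrays of the ALA and healthy groups in row 1 and those of the fish oil and n-6 groups in row 2. Slide row and group cannot be told apart in n-6 against healthy, ALA against n-6, ALA against fish oil and fish oil against healthy. For fish oil against n-6 and ALA against healthy the same holds of the slide column. In ALA against n-6 and fish oil against healthy the groups differ in slide column as well as row. In bulk tissue, fewer cells of a type and less RNA per cell cannot be told apart either.

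Levels below are on the log2 scale relative to the 75th percentile of processed signal on the array, which is 0, and they compare arrays for 1 probe at a time. Nfkb1 encodes p105, the precursor of the p50 subunit. Its level was −0.44 and 0.64 on the ALA colitis arrays, −0.26 and −0.17 on the fish oil colitis arrays, 0.25 and −0.04 on the n-6 colitis arrays, and −0.61 and 0.22 on the healthy arrays. The highest array was ALA replicate 2 and the lowest healthy replicate 1, and the ALA and healthy pairs each spanned most of the range. Group means ran in the order n-6 colitis (0.11), ALA colitis (0.10), healthy (−0.20) and fish oil colitis (−0.21), a range of 0.32 against a pooled SD between arrays of a group of 0.49. No neighbours in that order differed beyond the spread.

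Nfkb2 encodes p100, the precursor of p52 and the hub of the non-canonical branch. Its level was −0.75 and 0.25 on the ALA colitis arrays, −0.37 and −0.84 on the fish oil colitis arrays, −0.60 and −0.44 on the n-6 colitis arrays, and −1.15 and −0.58 on the healthy arrays. As for Nfkb1, ALA replicate 2 was highest and healthy replicate 1 lowest. The group means ran from ALA colitis (−0.25) through n-6 colitis (−0.52) and fish oil colitis (−0.61) to healthy (−0.86), with a pooled SD of 0.44 that no step between neighbours exceeded.

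Rela encodes p65, the main activating subunit of the canonical dimer. By the probe near the end of the transcript its level was 0.18 and 0.49 on the ALA colitis arrays, 0.45 and 0.48 on the fish oil colitis arrays, 0.23 and 0.14 on the n-6 colitis arrays, and 0.27 and 0.42 on the healthy arrays. It was the steadiest of the 7 genes, with a range of 0.35 over all 8 arrays and a pooled SD of 0.12. Both fish oil arrays lay above both n-6 arrays and both healthy arrays, and both n-6 arrays lay below both healthy arrays. The order of means was fish oil colitis (0.46), healthy (0.35), ALA colitis (0.33) and n-6 colitis (0.19), and the last step, 0.15, was the one that exceeded the SD.

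Nfkbia encodes IkB-alpha, an inhibitor that NF-kB itself induces rapidly and that ends its nuclear activity. Its level was 2.90 and 2.41 on the ALA colitis arrays, 2.87 and 2.01 on the fish oil colitis arrays, 2.75 and 2.83 on the n-6 colitis arrays, and 2.06 and 2.19 on the healthy arrays. The n-6 and ALA arrays all lay above both healthy arrays, whereas the fish oil arrays lay on either side of them. Mean levels ran from n-6 colitis (2.79) through ALA colitis (2.66) and fish oil colitis (2.44) to healthy (2.13), and the pooled SD of 0.35 was wider than each step between neighbours.

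Nfkbib encodes IkB-beta, an inhibitor with slower turnover. Its level was −0.69 and −0.56 on the ALA colitis arrays, −0.39 and −1.12 on the fish oil colitis arrays, −0.91 and −0.74 on the n-6 colitis arrays, and −0.98 and −0.84 on the healthy arrays. Both extremes fell in the fish oil group, and the ALA arrays lay above both n-6 and both healthy arrays. The means were −0.62 in ALA colitis, −0.75 in fish oil colitis, −0.82 in n-6 colitis and −0.91 in the healthy group, with a pooled SD of 0.27 that no step exceeded.

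Nfkbie encodes IkB-epsilon, which is also induced by NF-kB and damps its later phase. Its level was −2.12 and −0.66 on the ALA colitis arrays, −1.05 and −2.02 on the fish oil colitis arrays, −0.83 and −0.57 on the n-6 colitis arrays, and −1.97 and −1.53 on the healthy arrays. Both n-6 arrays lay above both fish oil and both healthy arrays, while the ALA pair lay far apart, with ALA replicate 1 the lowest of the 8 arrays. Of the 7 genes it had the widest range of group means, 1.05, from n-6 colitis (−0.70) through ALA colitis (−1.39) and fish oil colitis (−1.53) to healthy (−1.75). The pooled SD was 0.64, and the gap between n-6 colitis and the next group was the one step that exceeded it.

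Nfkbiz encodes IkB-zeta, an atypical nuclear IkB protein that helps p50 to switch on secondary response genes. Its level was −1.20 and −1.97 on the ALA colitis arrays, −1.88 and −1.68 on the fish oil colitis arrays, −1.06 and −1.56 on the n-6 colitis arrays, and −1.34 and −1.56 on the healthy arrays. Both fish oil arrays lay below the n-6 and healthy arrays. On fish oil replicate 1 the spots of the Nfkbiz probe differed by 0.47. The means were −1.31 in n-6 colitis, −1.45 in the healthy group, −1.58 in ALA colitis and −1.78 in fish oil colitis, and no step exceeded the pooled SD of 0.34.

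**Figure D1:**
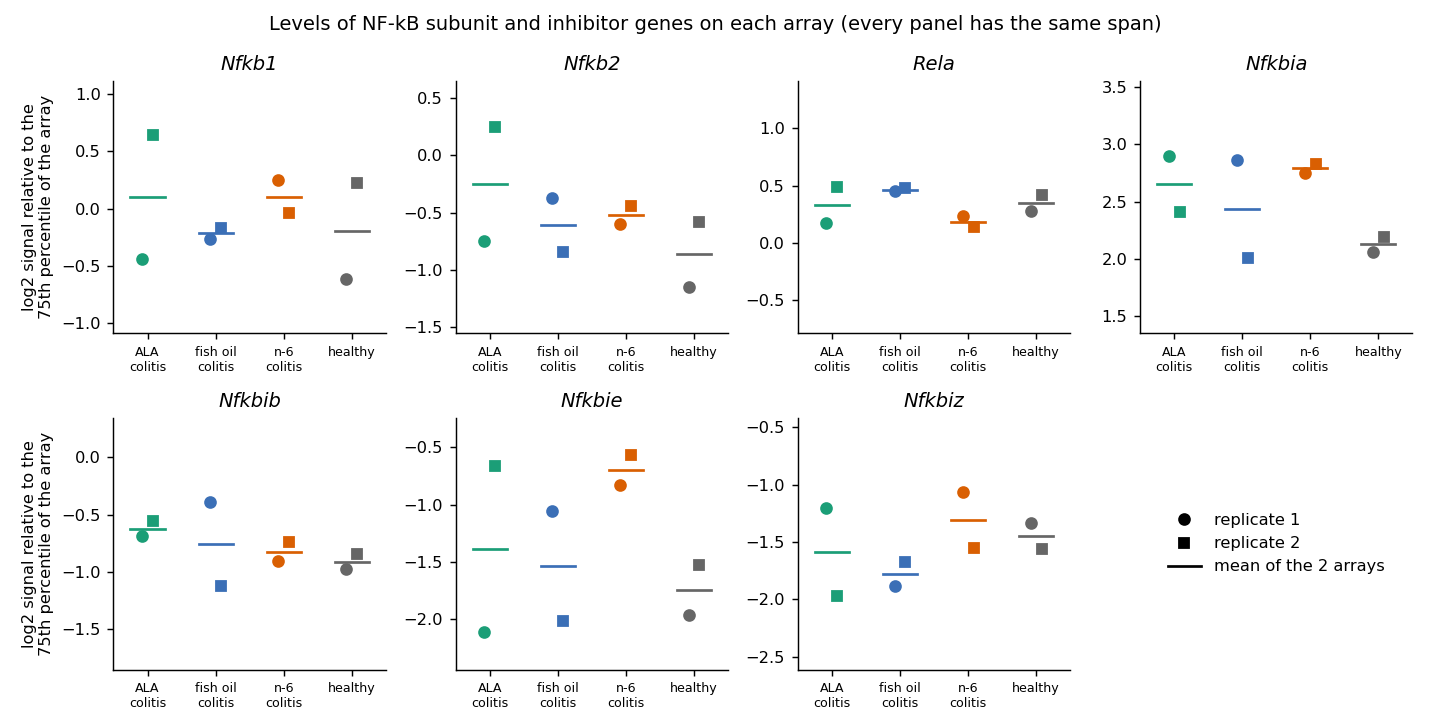
Log2 signal relative to the 75th percentile of the array (vertical axis, the same span in every panel) for each of the 7 genes by group, with circles for replicate 1, squares for replicate 2 and bars for the mean of the 2 arrays. Nfkbia and Nfkbie lie higher on both n-6 colitis arrays than on both healthy arrays, and the ALA colitis arrays lie far apart for Nfkb1, Nfkb2 and Nfkbie.

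In the main fits Rela was measured by its probe near the end of the transcript only. None of the 7 genes passed the test in any of the 6 comparisons between groups, by limma at an adjusted p under 0.05. None reached an unadjusted p under 0.05 either, and none was called under any of 18 alternative settings, in which the smallest adjusted p of a member was 0.353. Over all genes tested, the share called was 0.0385% in n-6 colitis against healthy, 0.0275% in ALA colitis against n-6 colitis and 0.0385% in fish oil colitis against n-6 colitis. It was 0% in ALA colitis against healthy, in fish oil colitis against healthy and in ALA colitis against fish oil colitis. The absence of calls thus held for nearly every gene on the array. The intervals below give what size of difference the spread between these arrays leaves possible, which is no bound on the difference between animals. The comparisons share groups, so that their values are not independent of each other.

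In n-6 colitis against healthy colon, the inhibitors Nfkbie and Nfkbia had the largest differences of the 7 genes. Nfkbie averaged −0.70 on the n-6 colitis arrays and −1.75 on the healthy arrays (n = 2 each), a log2 difference of 1.05 with an SE of 0.55 and a 95% interval from −0.26 to 2.36 (limma, adjusted p = 0.447). On the linear scale that is 2.07-fold, with an interval from 0.834 to 5.12. Nfkbia averaged 2.79 on the n-6 colitis arrays and 2.13 on the healthy arrays, a log2 difference of 0.67 with an SE of 0.38 and an interval from −0.22 to 1.56 (limma, adjusted p = 0.477). The subunits Nfkb2 and Nfkb1 differed by 0.34 and 0.30, Nfkbiz by 0.14, Nfkbib by 0.08 and Rela by −0.16, each with an interval that spans 0. The arrays did not overlap for 2 genes that were higher in n-6 colitis, Nfkbia and Nfkbie, and for 1 that was lower, Rela. Of all genes, 23.8% were higher and 21.7% lower in this way, so that the members' counts lay near the background. The median difference of the 7 genes was 0.30, beside 0.03 over all genes tested, and it ran from 0.06 to 0.63 when single arrays were left out. It was 0.63 without healthy replicate 2, 0.06 without healthy replicate 1 and 0.17 without n-6 replicate 1.

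Red cell genes differed between the same groups. The mean level of 6 red cell markers was 3.98 and 3.29 on the n-6 colitis arrays, against −0.71 and −1.03 on the healthy arrays. Of the 6, 5 were called higher (Hba-a1, Hbb, Hbb-b1, Hbe2 and Alas2, named after their values were seen), beside 0.0385% of all genes called. At least 1 of the 6 was called there under 11 of the 18 alternatives. The ALA colitis arrays were at −0.15 and 0.17 and the fish oil colitis arrays at −0.66 and −0.53. Against n-6 colitis, 4 of the 6 were called lower in ALA colitis, beside 0.0275% of all genes called. In fish oil colitis 4 were called lower too, beside 0.0385%. At least 1 was called under 5 of the 18 alternatives for ALA colitis and 11 for fish oil colitis. Macrophage markers, 8 of 9 tested, averaged −0.89 and −1.05 on the n-6 colitis arrays and −2.58 and −2.06 on the healthy arrays. Neutrophil markers, 7 of 11 tested, averaged −1.74 and −2.00 on the n-6 colitis arrays and −2.88 and −3.62 on the healthy arrays. Of those tested, 6 macrophage and 3 neutrophil markers were well above background on all 8 arrays, so that the means include dim values. Fibroblast markers, 7 of 8 tested, averaged 2.94 and 2.16 on the n-6 colitis arrays and 1.79 and 1.40 on the healthy arrays, and 1.65 and 1.60 on the fish oil colitis arrays. Colon epithelium markers averaged 2.48 and 4.14 on the n-6 colitis arrays and 4.55 and 4.43 on the healthy arrays. The part that these cells play in the differences of Nfkbia and Nfkbie was not tested.

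In ALA colitis against n-6 colitis, the 7 genes lay close to 0 as a group, with a median log2 difference of −0.004 beside 0.07 over all genes, and it was −0.10 when n-6 replicate 2 was left out, 0.12 when n-6 replicate 1 was and 0.27 when ALA replicate 1 was. Nfkbie had the largest difference, −0.69 with an SE of 0.55 and an interval from −2.00 to 0.62 (limma, adjusted p = 0.953), and its ALA and n-6 arrays overlapped. Nfkb2 differed by 0.27 with an interval from −0.74 to 1.28, and Nfkbia by −0.14 with an interval from −1.03 to 0.75. The intervals of all 7 genes lay between −2.00 and 1.28. The arrays did not overlap for 1 gene that was higher in ALA colitis, Nfkbib, by 0.20, and for 0 that were lower, against 16.9% and 13.1% of all genes.

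In fish oil colitis against n-6 colitis, 5 of the 7 genes lay below 0, and the median log2 difference was −0.32 beside 0.01 over all genes. Nfkbie differed by −0.84 with an SE of 0.55 and an interval from −2.15 to 0.47 (limma, adjusted p = 0.512). Nfkbiz differed by −0.47 with an interval from −1.34 to 0.40, Nfkbia by −0.36, Nfkb1 by −0.32 and Nfkb2 by −0.09. Rela differed by 0.28 with an interval from −0.39 to 0.95, and Nfkbib by 0.07. With normexp background correction the differences of Nfkbiz and Nfkbie shrank to −0.15 and −0.48, whereas that of Nfkbia grew to −0.52. The arrays did not overlap for 1 gene that was higher in fish oil colitis, Rela, and for 3 that were lower, Nfkb1, Nfkbie and Nfkbiz. Over all genes the shares were 23% higher and 23.6% lower. Without fish oil replicate 2 the median was 0.07, so that its sign rests on that array, and without n-6 replicate 1 it was −0.18.

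In ALA colitis against healthy colon the median log2 difference of the 7 genes was 0.30, beside 0.04 over all genes, and it was 0.58 without healthy replicate 2, 0.14 without healthy replicate 1 and 0.11 without ALA replicate 2. Nfkb2 differed by 0.61 with an interval from −0.40 to 1.62 (limma, adjusted p = 0.803) and Nfkbia by 0.53 with an interval from −0.36 to 1.42. Arrays did not overlap for 2 genes that were higher in ALA colitis, Nfkbia and Nfkbib, and for 0 that were lower, against 22.5% and 18.1% of all genes. In fish oil colitis against healthy colon the median was 0.16, beside 0.003 over all genes, and the differences ran from −0.33 for Nfkbiz to 0.31 for Nfkbia. Arrays did not overlap for 1 higher gene, Rela, and 1 lower gene, Nfkbiz, against 18.3% and 20.4%. That median was −0.12 without fish oil replicate 1, −0.0085 without healthy replicate 1, 0.37 without healthy replicate 2 and 0.49 without fish oil replicate 2. In ALA colitis against fish oil colitis the median was 0.19, beside 0.01 over all genes, from −0.13 for Rela to 0.36 for Nfkb2. The arrays overlapped for all 7 genes, against 25.3% of all genes not overlapping and higher and 20.4% lower. It was −0.14 without ALA replicate 2, −0.12 without fish oil replicate 2 and 0.50 without fish oil replicate 1.

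**Figure D2:**
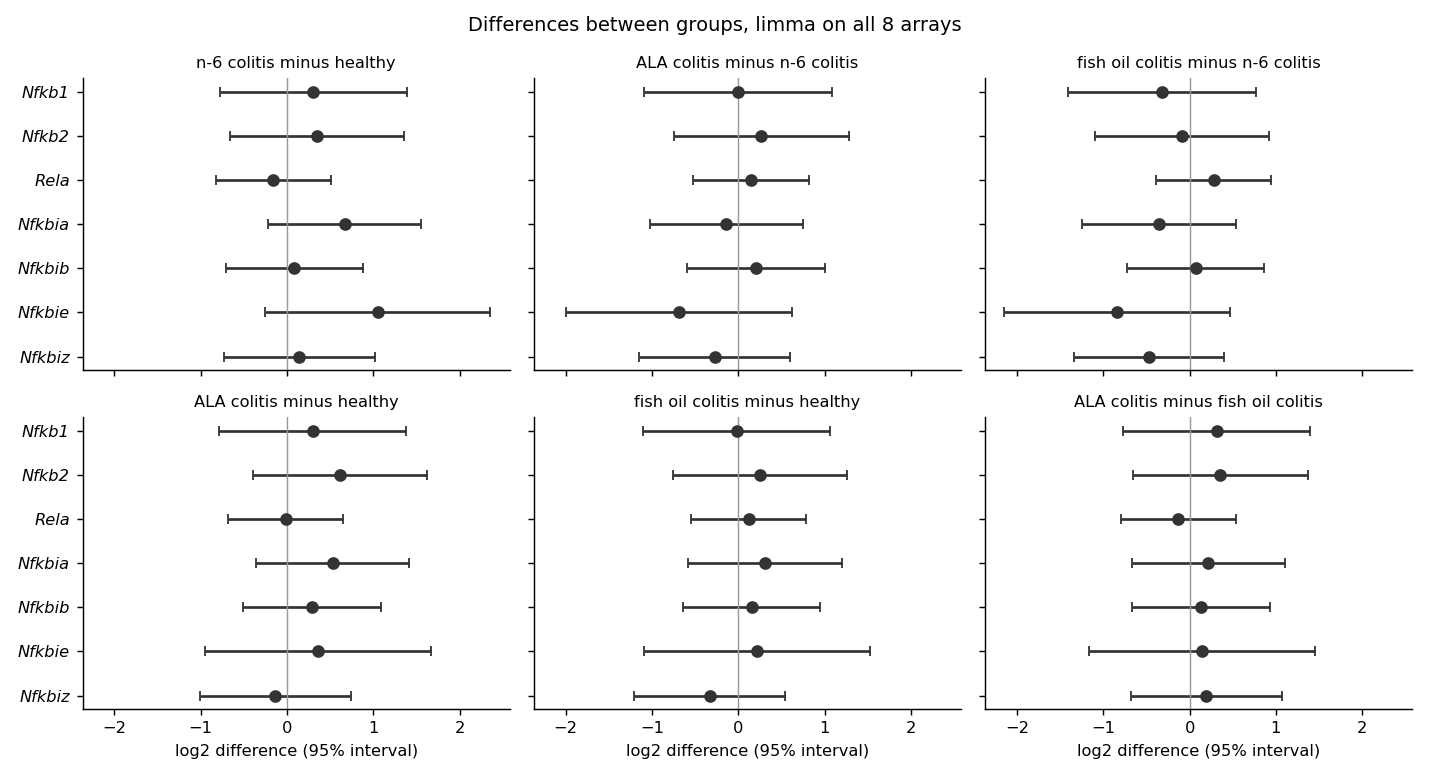
Log2 difference between groups (horizontal axis) for each of the 7 genes in the 6 comparisons, with dots for the difference and bars for its 95% interval from limma on all 8 arrays. Every interval spans 0, and the largest difference is that of Nfkbie in n-6 colitis against healthy, 1.05.

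The deposited Rela value depended on which of the probes entered it. The probe near the start of the transcript was well above background on 3 of 8 arrays, namely both ALA colitis arrays and healthy replicate 2. Its level was −3.49 and −4.62 on the ALA colitis arrays, −4.73 and −5.66 on the fish oil colitis arrays, −5.28 and −5.44 on the n-6 colitis arrays, and −4.51 and −5.09 on the healthy arrays. Both ALA arrays lay above both n-6 arrays, on which the probe was not well above background. The processed intensities were 24.4 and 14.2 in ALA colitis and 10.4 and 5.5 in n-6 colitis, too dim for a difference to be given.

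The authors' deposited table gives 1 Rela value for each array. In that table Rela was −1.06 and −1.21 on the ALA colitis arrays, 0.36 and 0.47 on the fish oil colitis arrays, 0.23 and 0.08 on the n-6 colitis arrays, and 0.28 and −1.38 on the healthy arrays. The 3 low arrays in the authors' deposited table were the 3 on which the start probe was well above background. The mean over Rela spots well above background, recomputed from the scanner files, matched the authors' deposited table to within 0.0932 on all 8 arrays. So the deposited Rela value averaged the end probe alone on 5 arrays and both probes on 3. Fitted with limma, the authors' deposited table gave a Rela log2 difference of −1.29 in ALA colitis against n-6 colitis (SE 0.56, adjusted p = 0.9999) and of 0.71 in n-6 colitis against healthy (adjusted p = 0.827), whereas the end probe gave 0.15 and −0.16. In ALA colitis against fish oil colitis the deposited values gave −1.55 (limma, unadjusted p = 0.028, adjusted p = 0.704) and the end probe −0.13. In fish oil colitis against healthy they gave 0.96 and the end probe 0.12. For the other 6 genes, with 1 probe each, the authors' deposited table lay within 0.0922 of the scanner values on every array.

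**Figure D3:**
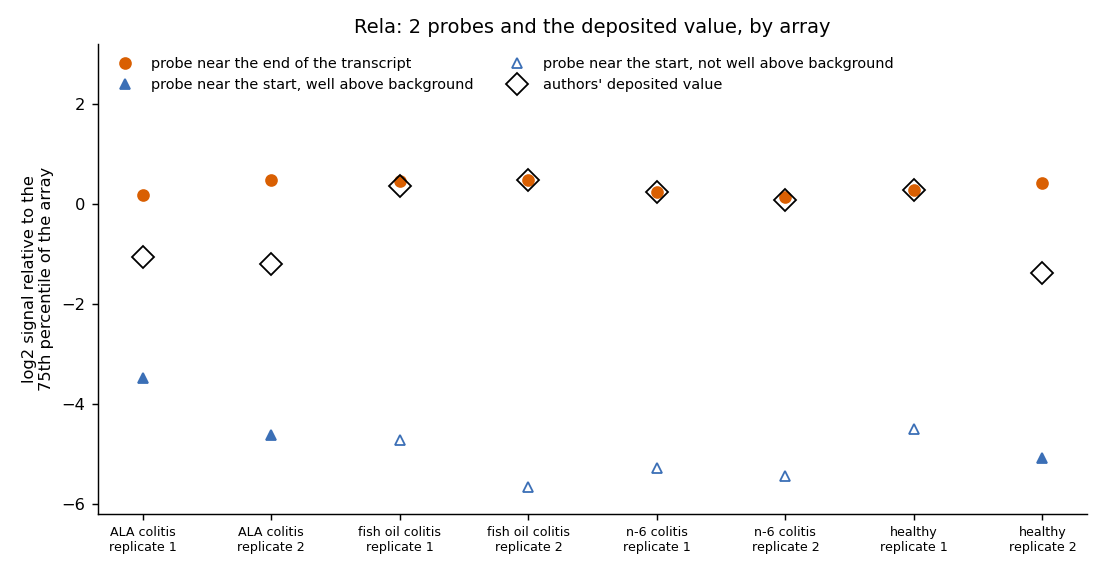
Log2 signal relative to the 75th percentile of the array (vertical axis) for both Rela probes and the authors' deposited value on each of the 8 arrays, with filled triangles where the start probe was well above background and open ones where it was not. The deposited value (diamonds) sits on the end probe on 5 arrays and between the probes on the other 3, and the distance between the probes is no measure of transcript amounts, since probes differ in brightness.

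The spread that limited these comparisons lay mostly between arrays rather than between spots. Over 56 pairs of spots of the same probe, the median gap was 0.04 on the log2 scale and the largest 0.47. That largest gap was of Nfkbiz on fish oil colitis replicate 1, the dimmest array. It exceeded the gap of 0.21 between the fish oil arrays for that gene. The gap between the arrays of a group reached 1.46 for Nfkbie, 1.08 for Nfkb1 and 0.997 for Nfkb2, all in ALA colitis, where replicate 2 was the higher array for each. In the same direction, B cell markers averaged −1.95 on ALA replicate 1 and −0.02 on ALA replicate 2, with 8 of 8 tested and 2 well above background on all arrays. T cell markers, with 6 of 9 tested and 4 well above background on all arrays, averaged −2.19 and −0.55 on these arrays. The B cell markers were at −0.29 and −3.88 on the n-6 colitis arrays, where Nfkb1 had the same order of arrays and Nfkb2 and Nfkbie the opposite one. They were at −3.73 and −5.87 on the fish oil colitis arrays, with the same order for Nfkb2 and Nfkbie and the opposite one for Nfkb1. On the healthy arrays they were at −4.39 and −4.22, with the same order for all 3 genes. T cell markers were at −2.53 and −2.34 on the fish oil colitis arrays, −1.45 and −1.63 on the n-6 colitis arrays, and −1.44 and −1.27 on the healthy arrays. The part of lymphocytes in the spread of the ALA arrays was not tested.

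**Figure D4:**
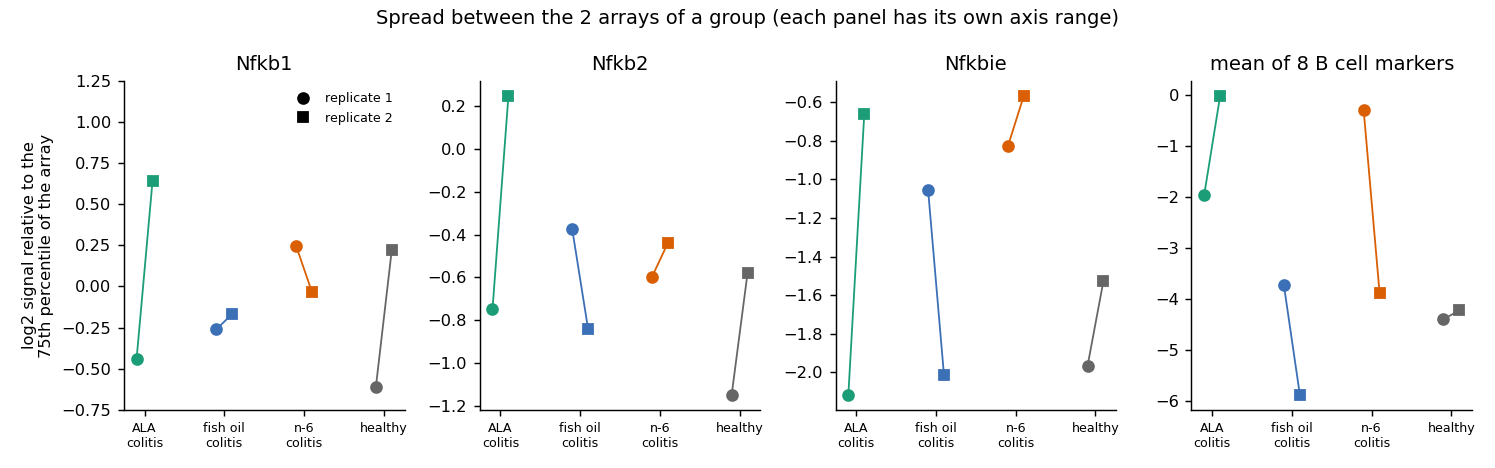
Log2 signal relative to the 75th percentile of the array (vertical axis, own range in each panel) for Nfkb1, Nfkb2, Nfkbie and the mean of 8 B cell markers, with circles for replicate 1, squares for replicate 2 and a line joining the arrays of a group. All 4 panels are higher on ALA colitis replicate 2 than on replicate 1, and in n-6 colitis the B cell markers and Nfkb1 are higher on replicate 1 and Nfkb2 and Nfkbie on replicate 2.

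Some members varied together from array to array. Nfkb1 and Nfkb2, which both encode precursor subunits, had a Pearson correlation of 0.81 over the 8 arrays, Nfkb2 and Nfkbie 0.76, and Nfkb1 and Nfkbie 0.68. Rela ran against Nfkbiz, at −0.76, and the correlation of Nfkb1 with Nfkbia was 0.005. These points share a slide and 4 groups, and they serve as a description. Among 10293 named genes well above background on all arrays, those most like Nfkbie over the 8 arrays included Ring1 (0.979) and Ahsa2 (0.967). Those most like Nfkbia were Adamtsl5 (0.958), Nudt3 (0.949) and Arpp19 (0.946). For Nfkb2 they included Hist1h2af (0.937) and Spink6 (0.913).

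In n-6 colitis against healthy, the genes that NF-kB is known to induce had a median farther from 0 than its subunits and inhibitors, although none of them passed the test. Of 32 listed, 29 were tested, and 0 were called in any comparison by limma in the setting used throughout. Their median log2 difference in n-6 colitis against healthy was 1.40 beside 0.03 over all genes, with 21 of 29 not overlapping and higher and 0 lower, against 23.8% and 21.7% of all genes. There 14 of the 29 had an unadjusted p under 0.05, as did 14.3% of all genes tested. With normexp background correction 2 of them were called there, the neutrophil-attracting chemokines Cxcl2 and Cxcl3, and with a replicate block 1 was, Ptx3, a soluble pattern recognition protein. Cxcl2 was at 3.33 and 1.46 on the n-6 colitis arrays, against −3.37 and −3.34 on the healthy arrays, a log2 difference of 5.75 (SE 0.89, limma, adjusted p = 0.113). Cxcl3 was at 2.67 and 2.10 on the n-6 colitis arrays, against −2.51 and −3.46 on the healthy arrays, a difference of 5.37. Ptx3 was at 2.31 and 0.27 on the n-6 colitis arrays, against −3.13 and −4.41 on the healthy arrays. Cxcl1, another chemokine of the same family, was at 2.58 and −1.28 on the n-6 colitis arrays and at −4.70 and −4.54 on the healthy arrays, of which replicate 1 was not well above background. All 4 had n-6 arrays above both healthy arrays, with n-6 replicate 1 the higher. The median was 0.80 without that array. Genes passed the filter through any 1 group, so some of the 29 may have entered through a high level in colitis. How many were well above background on the healthy arrays was not counted. The same filter applied to all genes.

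In fish oil colitis against n-6 colitis the median of the induced genes was −1.53, with 0 of 29 not overlapping and higher and 20 lower, against 23% and 23.6% of all genes. An unadjusted p under 0.05 was reached by 15 of them, beside 12% of all genes. That median was −0.83 with n-6 replicate 1 left out and −2.24 with n-6 replicate 2 left out. The limit of the filter holds for every comparison in this paragraph, since some of the 29 may have entered through a high level in n-6 colitis. How many were well above background in the other groups was not counted. Cxcl2 was at −0.32 and −1.66 on the fish oil colitis arrays, a log2 difference of −3.38 from the n-6 colitis arrays (SE 0.89, limma, adjusted p = 0.409). In ALA colitis against n-6 colitis the median was −0.47, with 2 of 29 higher and 6 lower against 16.9% and 13.1% of all genes, and Cxcl2 was at 2.82 and 0.63 on the ALA colitis arrays, overlapping the n-6 pair. Without n-6 replicate 1 that median was 0.01, so its sign rests on that array, and without n-6 replicate 2 it was −0.94. Against healthy colon the median was 1.005 in ALA colitis, with 18 of 29 higher and 2 lower against 22.5% and 18.1% of all genes. In fish oil colitis it was 0.13, with 8 of 29 higher and 4 lower against 18.3% and 20.4%. That fish oil median was −0.03 without fish oil replicate 1, −0.02 without healthy replicate 2, 0.24 without healthy replicate 1 and 0.40 without fish oil replicate 2, so that its sign is not settled. In ALA colitis against fish oil colitis the median was 0.99, with 15 of 29 higher and 1 lower against 25.3% and 20.4%, and it was 0.55 without fish oil replicate 2 and 0.36 with normexp correction. Lcn2 stands on both this list and that of neutrophil markers, and what neutrophils and red cells contribute to these values was not tested.

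Upstream of NF-kB, the lists showed smaller medians with members at both ends. Of 22 receptors 20 were tested, and their median in n-6 colitis against healthy was 0.61, with 7 of 20 not overlapping and higher and 2 lower, against 23.8% and 21.7% of all genes. Cd14 stands on both this list and that of macrophage markers, and what macrophages contribute to these values was not tested. Tnfrsf12a, the receptor of the cytokine TWEAK, was at 2.23 and 1.74 on the n-6 colitis arrays, against −0.63 and −0.45 on the healthy arrays (difference 2.53, SE 0.43, limma, adjusted p = 0.125). It was at −0.76 and 0.13 on the ALA colitis arrays and at 0.02 and −0.71 on the fish oil colitis arrays, below both n-6 arrays, and it was called in n-6 colitis against healthy with normexp correction. Tlr2, a receptor for bacterial lipoproteins, was at 1.82 and 2.23 on the n-6 colitis arrays and at 0.02 and 0.27 on the healthy arrays. Tnfrsf11a, the receptor RANK, was at −3.78 and −2.40 on the n-6 colitis arrays and at −1.47 and −0.26 on the healthy arrays, lower on both. Tlr5, the flagellin receptor, differed by −1.28 with overlapping arrays.

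Of 35 adaptors and kinases 28 were tested, with a median of −0.09 in n-6 colitis against healthy, with 8 of 28 higher and 7 lower without overlap, near those shares of all genes. Map3k8, a kinase activated when p105 is degraded, was at 1.04 and 0.15 on the n-6 colitis arrays, against −1.004 and −1.038 on the healthy arrays. Chuk, which encodes the IKK-alpha kinase, was at −2.60 and −2.05 on the n-6 colitis arrays and at −1.26 and −1.30 on the healthy arrays. Traf6, a ubiquitin ligase below Toll-like receptors, and Rnf31, part of the linear ubiquitin ligase, differed by −2.26 and −1.24. Of 22 further inhibitors and atypical IkB proteins 20 were tested, with a median of −0.06 and with 8 of 20 higher and 6 lower without overlap, against the same 23.8% and 21.7%. Tnip3, a partner of the deubiquitinase A20, was at −1.91 and −1.55 on the n-6 colitis arrays, against −4.53 and −5.28 on the healthy arrays, where replicate 1 was not well above background (difference 3.18, SE 0.49, limma, adjusted p = 0.115). Irak3, which blocks Toll-like receptor signalling, and Bcl3, an atypical IkB protein, differed by 1.81 and 1.11, and Tnip1, another A20 partner, by −1.19. Of these 3 upstream and inhibitor lists 0 genes were called by limma in any of the 6 comparisons, and in n-6 colitis against healthy 5 of each list had an unadjusted p under 0.05, beside 14.3% of all genes.

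**Figure D5:**
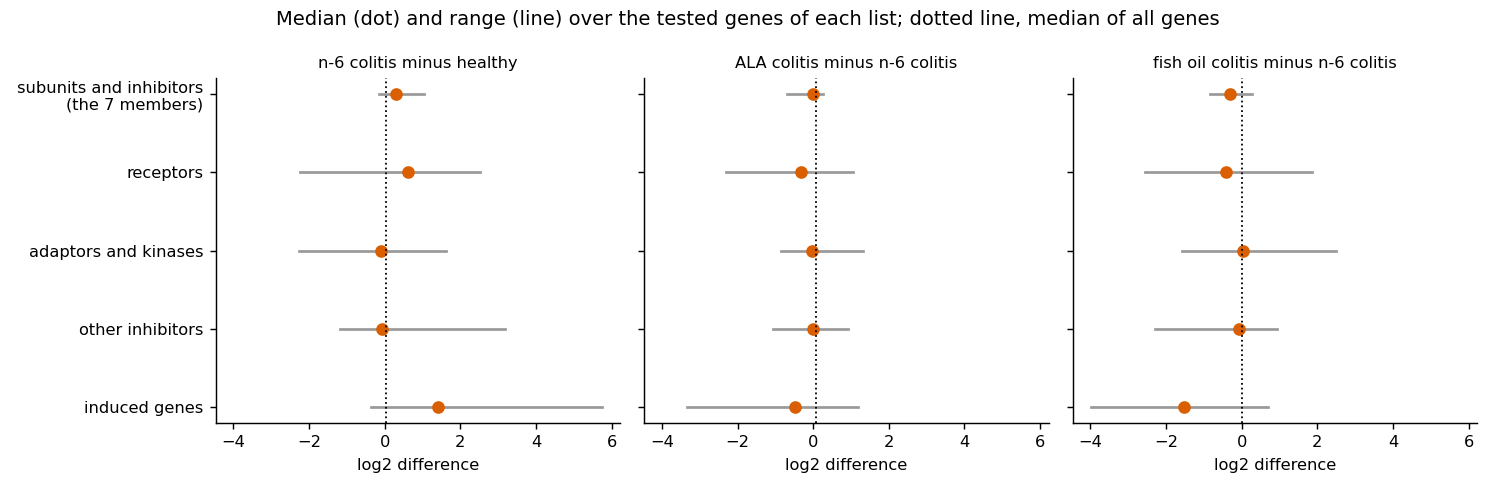
Log2 difference (horizontal axis) in n-6 colitis minus healthy, ALA colitis minus n-6 colitis and fish oil colitis minus n-6 colitis, with a dot for the median and a line for the range over the tested genes of each list, and a dotted line for the median of all genes. The induced genes have medians of 1.40, −0.47 and −1.53, beside 0.30, −0.004 and −0.32 for the 7 subunits and inhibitors. Genes passed the filter through any group, so some induced genes may have entered through a high level in n-6 colitis.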

How the data were processed

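Colon RNA was labelled with Cy3 after Trizol extraction, per the labels' protocols. The deposited scanner files hold spot intensity made by Agilent Feature Extraction 11.5.1.1, per the file headers, as background-subtracted processed signal not scaled between arrays. The authors' table, also deposited, gives log2 values of 26205 symbols, with each array's 75th percentile between 0.0032 and 0.00898. How it joins probes is not given in those sources. Its correlation with that array's own processed signal on the log2 scale was 0.980 to 0.988, which settled direction, and its column medians lay between −3.18 and −2.89. The log base rests on the members with 1 probe each, whose deposited values lay within 0.0922 of the log2 scanner values.

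Control and outlier spots were left out, spots of a probe were averaged, and log2 processed signal minus each array's 75th percentile was used. A probe passed if both arrays of any 1 group showed it well above background (20801 of 30367), and a gene was represented by its brightest probe. Probes were named through RefSeq (GRCr8) by accession (18347), another accession (454), file symbol (2541) or synonym (407), and 8618 kept the file's name. Members were matched by the file's own gene name.

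limma 3.58.1 in R 4.3.3 fitted all 8 arrays with 1 shared spread (4 residual and 3.02 prior degrees of freedom), and p-values were adjusted by Benjamini-Hochberg over all 18171 genes at a threshold of 0.05. Of these, 8 genes lacked a value on an array and were left out of counts of overlap. The number of arrays limits the precision. The procedure was tested on 10 simulated sets with 200 changed genes each, for n-6 colitis against healthy. It recovered 0.452% of genes changed by 1 on the log2 scale, 23.9% of those changed by 2 and 91.9% of those changed by 4. False calls averaged 5.3 per set. Changes of 1 were thus rarely called, so a lack of calls says little about differences of that size. Alternatives changed background correction, normalization, probe choice, filter, value source, replicate block and arrays.

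All members were named in each comparison. Other genes were named if past the threshold in a pathway list, if among the 4 of a list with the largest difference in n-6 colitis against healthy, or if among the 3 most correlated with each of the 3 members of widest range. Of the last, 2 genes are not reported here. The members and lists were chosen with earlier results of these data known.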

Additional observations from a re-analysis of the deposited data

How the results depend on the processing

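No member was called under any of the 18 alternatives, with a smallest adjusted p of 0.353 (limma). Left-out arrays, background correction, normalization, centring, probe choice, filter, variance model, groups fitted, replicate block and the deposited table were tried, the alternatives for the induced genes after seeing the data. Of the summaries and counts, 414 values stayed near their main value and 18 moved, and of single members' differences 710 kept their direction and 46 reversed, none of them called. A median stayed near if it shifted by less than its pooled SD between arrays, 0.27 for the members and 0.45 for the induced genes. By this rule the members' median in n-6 colitis against healthy, 0.30, stayed near at 0.06 without healthy replicate 1. Counts of calls that stayed at 0 are among the 414. The variance model, the replicate block, the groups fitted and left-out arrays of other groups cannot change a member's difference. The filters left it unchanged too. All of these are counted as kept, so the counts overstate how stable the differences are. The deviations of same-numbered arrays had correlations from −0.168 to 0.470, the highest between healthy and ALA colitis. These values do not settle whether the numbers pair the arrays. With a replicate block 0 members and 1 induced gene were called in n-6 colitis against healthy, where normexp called 2.

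Over all genes, calls ran from 0 to 69 in n-6 colitis against healthy (7 in the setting used, 69 with normexp), 0 to 6 in ALA against n-6 (5) and 0 to 8 in fish oil against n-6 (7). Normexp moved the median of all genes to 0.23 in fish oil against n-6, 0.24 in fish oil against healthy and −0.18 in ALA against fish oil, and median centring moved it to 0.17 in n-6 against healthy, −0.13 in ALA against n-6 and −0.12 in fish oil against n-6.

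Reversed log2 differences were as follows. The authors' deposited table gave Rela 0.71 in n-6 colitis against healthy and −1.29 in ALA against n-6 colitis, and Nfkb1 0.019 in ALA against n-6 colitis. There, normexp gave Nfkb1 0.028 and median centring gave Rela −0.053. Median centring gave Nfkbib −0.058 in fish oil against n-6 colitis. The mean of probes gave Rela 0.37 in ALA against healthy, −0.14 in fish oil against healthy and 0.50 in ALA against fish oil, since it adds the start probe. Normexp gave Nfkbiz 0.045 in fish oil against healthy and −0.095 in ALA against fish oil. It moved the median of the induced genes to −0.97 in fish oil against n-6 colitis and to 0.36 in ALA against fish oil. Apart from the Rela probes, the causes were not tested.

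With single arrays left out, which leaves 1 array in a group that is assumed to vary like the others, the members' median ran from 0.059 to 0.63 in n-6 colitis against healthy, −0.10 to 0.27 in ALA against n-6, −0.32 to 0.073 in fish oil against n-6, 0.11 to 0.58 in ALA against healthy, −0.12 to 0.49 in fish oil against healthy and −0.14 to 0.50 in ALA against fish oil. That of the induced genes ran from 0.80 to 1.71, −0.94 to 0.0068, −2.24 to −0.83, 0.91 to 1.17, −0.026 to 0.40 and 0.55 to 1.04 in the same order. Members whose sign turned were, in n-6 colitis against healthy, Nfkb1 (−0.11 to 0.72) and Nfkbiz (−0.11 to 0.39). In ALA against n-6 they were Nfkb1 (−0.55 to 0.54), Nfkb2 (−0.23 to 0.77), Nfkbia (−0.38 to 0.11), Nfkbie (−1.42 to 0.038), Nfkbiz (−0.66 to 0.11) and Rela (−0.0085 to 0.30). In fish oil against n-6 they were Nfkb2 (−0.32 to 0.14), Nfkbia (−0.78 to 0.073) and Nfkbib (−0.29 to 0.44). In ALA against healthy they were Nfkb1 (−0.24 to 0.84), Nfkbie (−0.37 to 1.09), Nfkbiz (−0.52 to 0.25) and Rela (−0.17 to 0.14). In fish oil against healthy they were Nfkb1 (−0.43 to 0.40), Nfkb2 (−0.031 to 0.54), Nfkbia (−0.12 to 0.74), Nfkbib (−0.21 to 0.52) and Nfkbie (−0.27 to 0.69). In ALA against fish oil they were Nfkb1 (−0.23 to 0.86), Nfkb2 (−0.14 to 0.86), Nfkbia (−0.21 to 0.65), Nfkbib (−0.23 to 0.50), Nfkbie (−0.58 to 0.87), Nfkbiz (−0.19 to 0.58) and Rela (−0.29 to 0.023). In n-6 colitis against healthy, Nfkbie (0.83 to 1.27) and Nfkbia (0.60 to 0.73) kept their sign, as did Nfkbie (−1.32 to −0.35) in fish oil against n-6. The 7 measured members were well above background on all arrays by the probe used.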
